A study of Homo sapiens with 6 samples.

Results

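Chromatin remodellers are ATP-driven machines that slide, evict or exchange nucleosomes, and readers are proteins that dock on modified histone tails. The genes described here are the measured members of these families in HCT-shSLBP cells, a derivative of the human colorectal carcinoma line HCT116 named for a hairpin directed at SLBP. They were taken by gene symbol (the SMARC, ARID, CHD, INO80, ACTL6, BRD, DPF, BAZ, RUVBL, CBX and ING families and PBRM1) from probe sets annotated to exactly 1 gene. Where a gene had several such probe sets, the brightest on average was used. The symbols gave 69 of the 22411 genes measured in the series. Of these, 20 belong to SWI/SNF, 6 to ISWI, 7 to INO80 and 14 to the readers. The CHD family is taken by symbol and has 9, with CHD1L counted among them. A further 6 are other ARID genes and 2 are SNF2 ATPases that act outside these complexes. The last 5, called other loci below, were placed in no family (BRD10, BRD3OS, BRD7P3, RUVBL1-AS1 and SMARCA5-AS1). BRD10 is a protein-coding gene with a BRD symbol and was not counted among the readers. CBX5 and CHD2, whose probe sets were shared with other genes, are not analysed here.

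The Control group was 3 untreated cultures and the Dox group 3 cultures given doxycycline at 2 µg/ml, all of the same hairpin line, with 1 array per culture. SLBP binds the 3' hairpin of replication-dependent histone mRNAs, and the series title speaks of histone-depleted cells. The labels give neither the length of treatment nor whether the line is a clone or a pool, and no doxycycline-treated culture lacking the hairpin enters the comparison, so drug and hairpin cannot be told apart. SLBP itself fell by 0.77 on the log2 scale (SE 0.0553, limma adjusted p = 0.00322), and its exact two-sided permutation p over the 6 arrays was 0.1, the smallest that 3 against 3 allows. All values below are log2 RMA signals, and changes are Dox minus Control. "Rose" and "fell" mean a limma adjusted p under 0.05, adjusted over all genes.

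General epithelial markers were high in these cells, and intestinal ones lay closer to background. All 10 epithelial and colorectal markers lay above the level of 4.51 under which 95% of 366 olfactory receptor genes lay, a yardstick for background since no detection calls came with the values. Fibroblast markers lay above it in 3 of 5 cases and blood and endothelial markers in 2 of 6, and none of these foreign markers passed the test. The keratins KRT8, KRT18 and KRT19 had Control means between 10.8 and 11.0, whereas the intestinal genes VIL1 (4.58), CDX2 (5.06) and CDX1 (5.34) were less than 1 above the olfactory receptor level, and the fibroblast marker COL1A1 read 6.27. Of the epithelial markers the claudins CLDN4 (0.21, limma adjusted p = 0.0276) and CLDN7 (0.19, limma adjusted p = 0.0336) rose, and none fell. Of 26 DNA replication genes, 21 fell and none rose, with a median change of -0.35. What part this shift has in the changes of the remodellers and readers was not tested. In these bulk samples fewer cells of a kind and less RNA per cell cannot be told apart.

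SWI/SNF complexes (BAF, PBAF and the non-canonical form) open promoters and enhancers and are often mutated in carcinomas. ISWI complexes space nucleosomes, among other places behind replication forks. CHD ATPases include CHD3 and CHD4, the motors of the NuRD corepressor, and INO80 exchanges and slides nucleosomes at promoters and stalled forks. Readers include the bromodomain BRD proteins, which bind acetylated lysines, the CBX chromodomain proteins of heterochromatin and Polycomb, and the ING proteins, whose PHD fingers bind methylated histone H3.

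Of the 69 genes, 4 fell and none rose, or 5.80%, against 6.19% of all 22411 genes called in either direction (3.27% fell and 2.93% rose). The share called was thus near the background. The median change was -0.034, beside -0.019 for all genes, and 45 of the 69 changed by less than 0.1. Lower means were seen in 48 (69.6%, against 58.2% of all genes) and higher means in 21. No member changed by more than 0.28 in size. The 4 that fell were ARID5B, RUVBL1, BAZ1B and CHD1L. At an unadjusted limma p under 0.05 there were 22 of the 69 (31.9%), beside 5063 of all genes (22.6%).

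**Figure D1:**
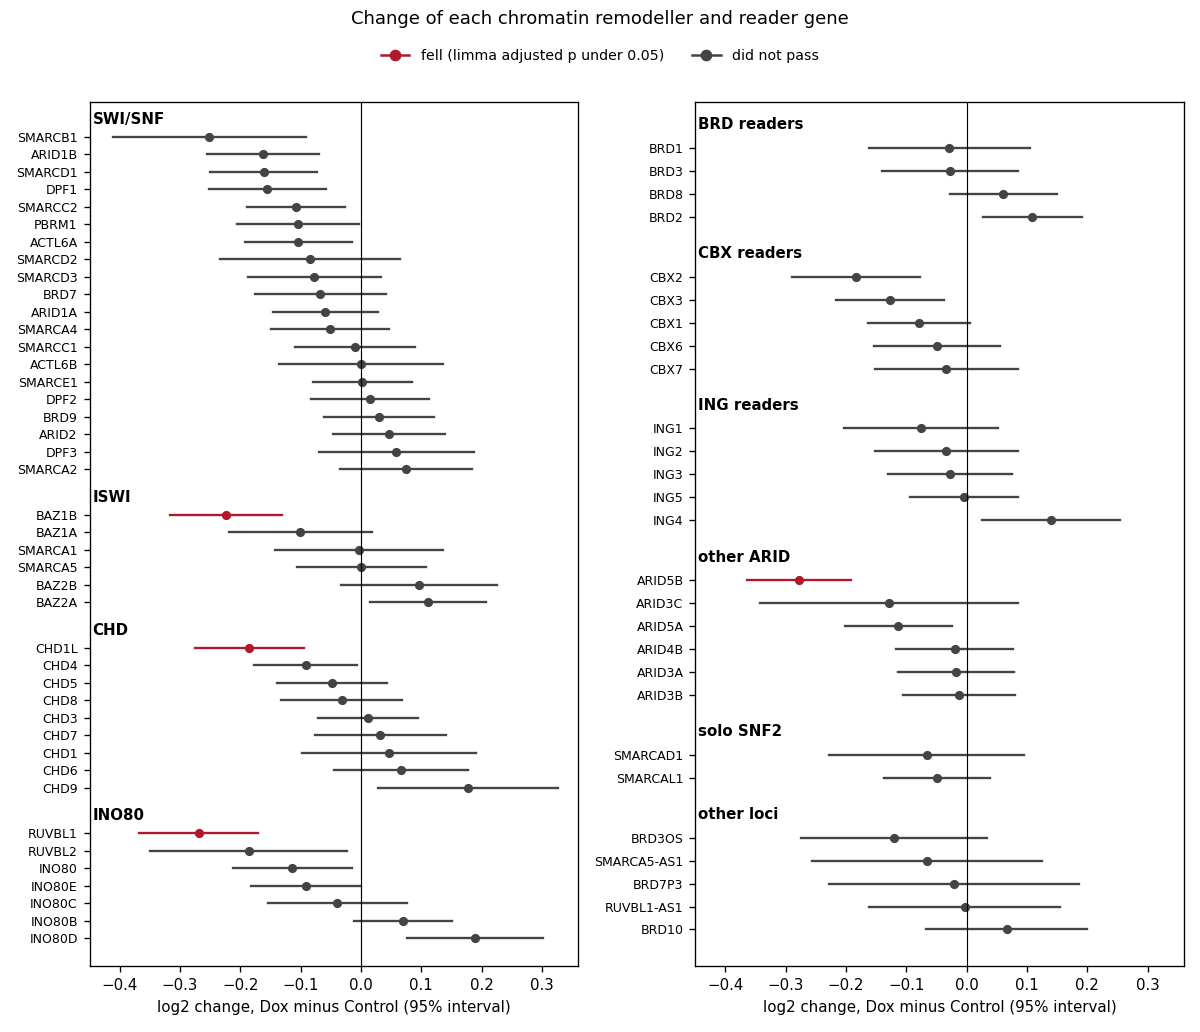
Log2 change (Dox minus Control, horizontal axis) of each of the 69 genes, ordered within its family, with the 95% interval of limma's estimate from 3 arrays per group. The 4 genes that fell are in red, from -0.28 for ARID5B to -0.19 for CHD1L. Intervals are for single genes without adjustment, so an interval that leaves out 0 is no call.

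ARID5B encodes a DNA-binding protein with an AT-rich interaction domain that partners the histone demethylase PHF2. Its signal was 8.02, 8.04 and 8.03 in the Control cultures and 7.79, 7.75 and 7.72 in the Dox cultures. Every Dox array lay under every Control array. The means were 8.03 ± 0.011 and 7.75 ± 0.035 (SD, n = 3 each). ARID5B thus changed by -0.28 (SE 0.0366, limma adjusted p = 0.0113), to 82.5% of the Control signal.

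RUVBL1 encodes an AAA+ ATPase that, with RUVBL2, forms the ring at the core of INO80, SRCAP and TIP60 and also serves the R2TP chaperone. It read 8.19, 8.15 and 8.09 in Control and 7.86, 7.86 and 7.92 in Dox, again without overlap. RUVBL1 changed by -0.27 (SE 0.0417, limma adjusted p = 0.0176), to 83.0% of Control. RUVBL1-AS1, the antisense locus, changed by -0.0033 (limma adjusted p = 0.986).

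BAZ1B, also called WSTF, joins the ATPase SMARCA5 in the WICH complex and phosphorylates H2AX. Its 3 Control values were 8.74, 8.71 and 8.74 and its Dox values 8.52, 8.54 and 8.45. The groups stood apart, and the change was -0.22 (SE 0.0394, limma adjusted p = 0.0236), with 85.6% of the signal left. CHD1L, known as ALC1, is a remodeller switched on by poly(ADP-ribose) at DNA damage. It read 6.60, 6.61 and 6.62 in Control and 6.40, 6.48 and 6.40 in Dox, a change of -0.19 (SE 0.0385, limma adjusted p = 0.0391) that left 88.0%. The calls of these 4 genes were lost in some fits that left out 1 array, while their estimates kept their sign. Over 15 alternative settings the changes lay between -0.30 and -0.26 for ARID5B and between -0.29 and -0.23 for RUVBL1. They lay between -0.26 and -0.20 for BAZ1B and between -0.21 and -0.17 for CHD1L. The share of all genes called was 6.19% with all arrays and between 0.589% and 4.9% over the 6 fits that left out 1. Without Control replicate 3, and likewise without Dox replicate 3, none of the 69 fell, and the share called over all genes dropped to 0.919% and 0.589%. ARID5B kept its call when any of the other arrays was left out, with limma adjusted p between 0.0249 and 0.059 over the 6 fits. BAZ1B, RUVBL1 and CHD1L also lost theirs without Control replicate 1 or 2, RUVBL1 without Dox replicate 2 and CHD1L without Dox replicate 1.

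**Figure D2:**
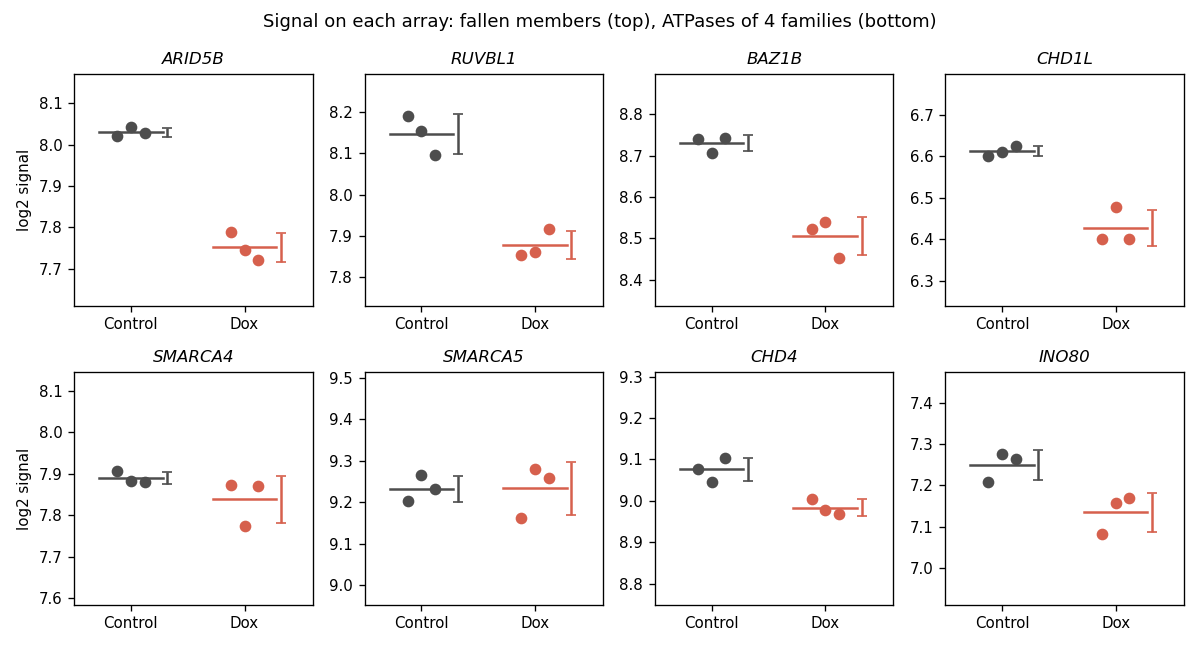
Log2 signal (vertical axis, spanning the same width in every panel) on each of the 3 Control and 3 Dox arrays, with the group mean as a line and the SD as a bar beside it. In the top row (ARID5B, RUVBL1, BAZ1B, CHD1L) all Dox points lie below all Control points, as they do for CHD4 and INO80, and by a narrow margin for SMARCA4, while SMARCA5 overlaps.

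Promoters were read to see whether the fallen members carry the letters typical of cell-cycle genes. RefSeq windows (GRCh38.p14, 250 bases before to 50 after a start site) were available for 55 of the 69 genes, 91 windows in all. The searched letters, on both strands, were the E2F octamers TTTCCCGC, TTTCGCGC, TTTGCCGC and TTTGGCGC, the CCAAT box, and the CHR elements TTTGAA and TTCGAA. E2F letters were in 2 of the 91 windows (2.20%), against 3.31% of all 35116 windows and 15 of 31 windows (48.4%) of the DNA replication genes above. None of the 8 windows of the 4 fallen genes held E2F or CHR letters. A CCAAT box was in 3 of them (37.5%), against 34.6% of all windows and 61.3% of those of the DNA replication genes. CHR letters were in 6.59% of the members' windows, in 16.4% of all and in 6.45% of those of the DNA replication genes. CBX3 and BRD7 were the members with E2F letters. Printed here are the windows of fallen genes that hold a CCAAT box, and that of CBX3 for contrast. Capitals mark the CCAAT box (ATTGG when it lies on the other strand) and the E2F octamer. BAZ1B lies at chr7:73522244-73522543 and RUVBL1 at chr3:128153865-128154164 and chr3:128123763-128124062, all on the minus strand, and CBX3 at chr7:26201193-26201492 on the plus strand.
BAZ1B: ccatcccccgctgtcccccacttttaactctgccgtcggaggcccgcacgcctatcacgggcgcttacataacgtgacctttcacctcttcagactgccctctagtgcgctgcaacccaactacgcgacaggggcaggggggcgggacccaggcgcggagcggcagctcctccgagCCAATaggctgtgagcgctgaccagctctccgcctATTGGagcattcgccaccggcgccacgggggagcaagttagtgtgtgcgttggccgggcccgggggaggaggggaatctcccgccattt
RUVBL1 upstream start: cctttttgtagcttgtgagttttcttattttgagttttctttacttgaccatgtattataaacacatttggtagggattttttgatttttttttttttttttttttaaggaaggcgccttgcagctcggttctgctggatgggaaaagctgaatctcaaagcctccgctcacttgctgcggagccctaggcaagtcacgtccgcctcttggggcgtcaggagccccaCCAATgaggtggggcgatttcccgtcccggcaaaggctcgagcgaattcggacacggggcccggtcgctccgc
RUVBL1 downstream start: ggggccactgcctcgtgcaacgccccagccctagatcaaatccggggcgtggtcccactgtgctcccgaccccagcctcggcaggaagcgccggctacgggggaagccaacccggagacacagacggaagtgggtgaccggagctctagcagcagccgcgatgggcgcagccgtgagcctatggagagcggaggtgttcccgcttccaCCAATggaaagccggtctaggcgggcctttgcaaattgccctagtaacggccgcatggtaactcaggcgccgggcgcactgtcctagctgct
CBX3: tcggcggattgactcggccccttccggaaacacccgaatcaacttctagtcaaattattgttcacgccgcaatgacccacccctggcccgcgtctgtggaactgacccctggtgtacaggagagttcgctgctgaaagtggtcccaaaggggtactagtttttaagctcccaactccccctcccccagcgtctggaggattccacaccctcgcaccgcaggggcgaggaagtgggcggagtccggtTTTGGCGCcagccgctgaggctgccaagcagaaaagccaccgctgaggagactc
BAZ1B has 2 CCAAT boxes in opposite orientations, beginning 74 and 39 bases before the start site. Each RUVBL1 window has 1, beginning 23 and 42 bases before its start. In CBX3 the octamer TTTGGCGC begins 4 bases before the start. A match of letters is a description and not a binding site, and the array does not show which start site was used.

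In SWI/SNF no gene passed. Of the 20 genes, 13 had lower means (65.0%, against 58.2% of all genes), and in 9 every Dox array lay under every Control array, while in none did every Dox array lie above. That is 45.0% of the group, against 16.7% of all genes and 20.7% of the genes above the olfactory receptor level (Dox above Control: 12.5% of all genes). The group's median change was -0.063, and 7 of the 20 had an unadjusted limma p under 0.05, against 22.6% of all genes and 28.7% of those above the olfactory receptor level. On single arrays, the median over the 20 genes, each taken from its Control mean, was 0.011, -0.011 and -0.0097 in Control and -0.052, -0.073 and -0.058 in Dox. The shift of the group was thus small but present on each Dox array. It was not particular to SWI/SNF: over all 69 genes the Dox medians were -0.042, -0.050 and -0.046. The median change of all genes in the series was -0.019. No SWI/SNF gene fell in 11 of 15 alternative settings, among them the replicate block and each of the 6 fits without 1 array. With the block 0.776% of all genes fell, and without 1 array between 0.308% and 2.4%. With so few falls, the lack of one among 20 genes says little. In the other 4 settings SWI/SNF genes fell, and the share of all genes falling was above the 3.27% of the reported fit. Background subtraction gave 4 of 20 (7.17% of all genes) and trend and robust eBayes 4 of 20 (4.89%). Array weights gave 5 of 20 (7.65%) and the fit without genes under the median level 5 of 18 (12.6%).

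SMARCD1, a BAF60 subunit that links the complex to transcription factors, came nearest to the threshold. It read 7.59, 7.52 and 7.56 in Control and 7.37, 7.40 and 7.42 in Dox, a change of -0.16 (SE 0.0376, limma adjusted p = 0.0531). ARID1B, the subunit that replaces ARID1A in part of the canonical BAF complexes, read 6.60, 6.59 and 6.61 in Control and 6.47, 6.38 and 6.46 in Dox, a change of -0.16 (limma adjusted p = 0.0576). DPF1, a neuron-type BAF45 subunit, changed by -0.16 (limma adjusted p = 0.0730).

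SMARCB1, the core subunit lost in rhabdoid tumours, had the lowest estimate of the group at -0.25 but a wide spread. It read 8.08, 7.89 and 7.95 in Control and 7.78, 7.61 and 7.77 in Dox (SE 0.0677, limma adjusted p = 0.0766). As in RUVBL2 and SMARCD2, Control replicate 1 was its highest Control and Dox replicate 2 its lowest Dox. In SMARCB1 and SMARCD2 replicate 1 was the highest and replicate 2 the lowest in both groups. Control replicate 1 was the highest Control in 30 of the 69 genes, and Dox replicate 2 the lowest Dox in 28. These counts were not taken over all genes, so no array effect is read from them. SMARCC2, a scaffold, changed by -0.11 (limma adjusted p = 0.117), PBRM1, the polybromo subunit of PBAF, by -0.10 (limma adjusted p = 0.206), and ACTL6A, the actin-like subunit shared with INO80 and TIP60, by -0.10 (limma adjusted p = 0.158). Their groups did not overlap, nor did those of ARID1A and SMARCA4.

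The ATPases of SWI/SNF did not pass and had narrow intervals. SMARCA4 (BRG1) read 7.91, 7.88 and 7.88 in Control and 7.87, 7.77 and 7.87 in Dox, a change of -0.051 with a 95% interval of -0.15 to 0.047 (limma adjusted p = 0.528). SMARCA2 (BRM) changed by 0.075, with an interval of -0.034 to 0.18 (limma adjusted p = 0.397). The scaffold SMARCC1 and the HMG-box subunit SMARCE1 had intervals of -0.11 to 0.090 and -0.080 to 0.084. ARID1A, the subunit most often mutated in carcinomas, had one of -0.15 to 0.028. The PBAF subunit ARID2 changed by 0.046, BRD7 by -0.068 and BRD9, which marks the non-canonical complex, by 0.030. DPF2 changed by 0.014, SMARCD2 by -0.084 and SMARCD3 by -0.077. ACTL6B, the neuronal counterpart of ACTL6A, read 5.05 in both groups. DPF3 lay under the olfactory receptor level, at 4.34 and 4.39, and is not read further. The limma adjusted p of the group's 20 genes was between 0.0531 and 1.00.

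Of 6 ISWI genes 1 passed, and neither ATPase did. SMARCA5 (SNF2H) read 9.20, 9.26 and 9.23 in Control and 9.16, 9.28 and 9.26 in Dox, with an interval of -0.11 to 0.11, and SMARCA1 (SNF2L) had one of -0.14 to 0.14. Of the accessory subunits, BAZ1B fell as given above. BAZ1A (ACF1), which forms the ACF and CHRAC complexes, changed by -0.10 with overlapping groups (limma adjusted p = 0.295). The BAZ2 subunits had higher means. BAZ2A (TIP5), which silences ribosomal genes in the NoRC complex, read 7.60, 7.56 and 7.64 in Control and 7.67, 7.71 and 7.75 in Dox, a change of 0.11 (limma adjusted p = 0.162). BAZ2B changed by 0.096 (limma adjusted p = 0.362).

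Of the 9 genes grouped as CHD by symbol, CHD1L was the single call, and the median change was 0.011. The other 8, CHD1 and CHD3 to CHD9, did not pass (limma adjusted p between 0.154 and 0.890). CHD4, the main NuRD ATPase, read 9.08, 9.05 and 9.10 in Control and 9.01, 8.98 and 8.97 in Dox. These groups did not overlap, and the change of -0.092 (SE 0.0363) did not pass (limma adjusted p = 0.192). CHD3, the alternative NuRD motor, changed by 0.011 with an interval of -0.072 to 0.094, and CHD5, the neural NuRD motor, by -0.048.

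CHD9 had the highest estimate of the family. Its signal was 6.01, 6.18 and 6.16 in Control and 6.21, 6.37 and 6.30 in Dox, a change of 0.18 (SE 0.0633, limma adjusted p = 0.154). CHD6 changed by 0.066, CHD1, which follows RNA polymerase II on active genes, by 0.046, CHD7, the gene mutated in CHARGE syndrome, by 0.032, and CHD8, a partner of beta-catenin, by -0.032. Their limma adjusted p lay between 0.469 and 0.734.

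Of 7 INO80 genes RUVBL1 fell and none rose. Every Dox array lay under every Control array in 4 of them (57.1%, against 16.7% of all genes) and above in 2 (28.6%, against 12.5%). Over genes above the olfactory receptor level, where all 7 lay, the shares were 20.7% and 16.4%. RUVBL2 read 10.3, 10.1 and 10.2 in Control and 10.0, 9.94 and 10.0 in Dox, a change of -0.19 (SE 0.0692) that did not pass (limma adjusted p = 0.169). INO80, the ATPase of the complex, read 7.21, 7.28 and 7.26 in Control and 7.08, 7.16 and 7.17 in Dox, a change of -0.11 (limma adjusted p = 0.164).

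Among the complex-specific subunits, INO80D had the largest positive change of all 69 genes. It read 7.63, 7.77 and 7.65 in Control and 7.89, 7.84 and 7.88 in Dox, or 7.68 ± 0.076 against 7.87 ± 0.026 (SD, n = 3 each). The change of 0.19 (SE 0.0479) did not pass (limma adjusted p = 0.0657). INO80B had a higher mean (0.070), while INO80E (-0.091) and INO80C (-0.039) had lower ones. The median over the 7 genes was -0.085, -0.093 and -0.081 on the Dox arrays and between -0.0059 and 0.0080 on the Control arrays.

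**Figure D3:**
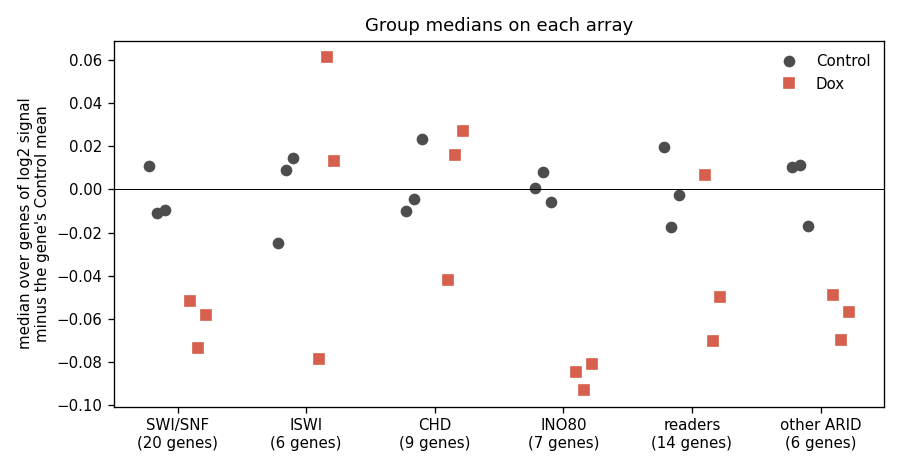
Median over the genes of a family of the log2 signal minus each gene's Control mean (vertical axis), for each of the 3 Control (circles) and 3 Dox (squares) arrays. Dox medians of SWI/SNF (-0.073 to -0.052), INO80 (-0.093 to -0.081) and the other ARID genes (-0.070 to -0.049) lie under all Control medians, while those of ISWI, CHD and the readers overlap with Control. Over all 69 genes, not drawn, the Dox medians were -0.050 to -0.042 and the Control medians -0.0047 to 0.0050.

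None of the 14 readers passed, with limma adjusted p between 0.0609 and 0.966. All 5 measured CBX genes had lower means, as had 58.2% of all genes. CBX2, a Polycomb subunit that compacts nucleosomes, read 7.84, 7.77 and 7.77 in Control and 7.64, 7.54 and 7.65 in Dox, a change of -0.18 (SE 0.0452, limma adjusted p = 0.0609). CBX3, the heterochromatin protein HP1 gamma, read 8.04, 7.97 and 8.02 in Control and 7.87, 7.87 and 7.91 in Dox, a change of -0.13 (limma adjusted p = 0.102). In both genes, and in CBX1 (HP1 beta, -0.079), the groups did not overlap. Over the 14 readers, every Dox array lay under every Control array in 21.4% and above in 21.4%. The shares over all genes were 16.7% and 12.5%. Over genes above the olfactory receptor level, where all 14 lay, they were 20.7% and 16.4%. The Polycomb genes CBX6 (-0.049) and CBX7 (-0.034) overlapped.

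BRD2, a BET protein that binds acetylated histone H4, had a higher mean. It read 9.53, 9.52 and 9.51 in Control and 9.64, 9.60 and 9.64 in Dox, a change of 0.11 (SE 0.0349) with no overlap that did not pass (limma adjusted p = 0.119). BRD2 lies in the major histocompatibility region, and the array has 9 probe sets for it, most of them copies for alternative haplotypes. In a fit of every probe set the change was positive in all 9, between 0.0013 and 0.37. The 2 extremes came from probe sets with mean levels of 3.06 and 2.16, under the olfactory receptor level. BRD3, the other measured BET gene, changed by -0.028, BRD8 of TIP60 by 0.061 and BRD1, a scaffold of histone acetyltransferases, by -0.029.

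ING4, which recruits the acetyltransferase KAT7, was the ING gene with the largest estimate. It read 6.05, 5.95 and 6.01 in Control and 6.11, 6.10 and 6.22 in Dox, a change of 0.14 (SE 0.0486, limma adjusted p = 0.145), and the groups did not overlap. ING1 and ING2, subunits of SIN3 complexes, changed by -0.075 and -0.034, ING3 of TIP60 by -0.028 and ING5 by -0.0041.

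The other ARID genes are 6 with ARID5B among them, and all 6 had lower means, as had 58.2% of all genes. ARID5A, an RNA- and DNA-binding protein, read 6.42, 6.38 and 6.42 in Control and 6.25, 6.32 and 6.31 in Dox, a change of -0.11 (limma adjusted p = 0.132). ARID3A (-0.017), ARID3B (-0.012) and the SIN3-associated ARID4B (-0.020) had the smallest estimates. ARID3C changed by -0.13 with an SE of 0.0907. The solo ATPases SMARCAD1 (-0.067), which acts behind replication forks, and SMARCAL1 (-0.049), which remodels stalled forks, did not pass (limma adjusted p = 0.628 and 0.495). Of the other loci, BRD10, left out of the reader counts, changed by 0.066 (limma adjusted p = 0.552). BRD3OS changed by -0.12, SMARCA5-AS1 by -0.066 and the pseudogene BRD7P3, under the olfactory receptor level, by -0.021. All 4 had overlapping groups.

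The intervals set what changes these arrays could have missed. Of the 65 genes that did not pass, 41 had a 95% interval wholly within 0.2 of 0, and over all 65 the bounds ran from -0.41 (SMARCB1) to 0.33 (CHD9). The SE of a change lay between 0.0342 and 0.0907.

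Related genes were compared directly through the difference of their signals on the same array, which tests whether they changed unequally. Of 16 pairs, 5 had differences that did not overlap between groups. Each had the smallest exact two-sided permutation p that 3 against 3 allows, 0.1 (0.32 after Benjamini-Hochberg adjustment over the pairs). For single genes, every Dox array lay under every Control array in 16.7% of all genes and above in 12.5%. Above the olfactory receptor level these shares were 20.7% and 16.4%. The share over other pairs of genes was not taken, so no divergence is read from the count. SMARCA4 changed by -0.13 relative to SMARCA2 (SE 0.0566) and CHD4 by -0.10 relative to CHD3 (SE 0.0204). ARID1A changed by 0.10 relative to ARID1B (SE 0.0191), ARID5A by 0.16 relative to ARID5B (SE 0.0429), and ING4 by 0.14 relative to ING5 (SE 0.0591). No such separation was seen for RUVBL1 and RUVBL2 (difference -0.083, SE 0.0721), BAZ1A and BAZ1B (0.12, SE 0.0516), SMARCA5 and SMARCA1 (0.0045, SE 0.0327) or CBX1 and CBX3 (0.047, SE 0.0254). With this number of arrays none of the pairs could pass.

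Partners of these complexes whose symbols lie outside the rule were examined as 10 lists. Of the 98 measured, 11 fell (11.2%, against 3.27% of all genes and 4.57% of those above the olfactory receptor level) and 3 rose (3.06%, against 2.93% and 4.07%), with a median change of -0.033. The lists were chosen with earlier results of these data known, so these shares describe the lists and are no test. Most of the lists hold few genes, and the counts for each are to be read against these shares. The falls were spread over several complexes. POLE3, a histone-fold subunit that CHRAC shares with DNA polymerase epsilon, read 7.29, 7.21 and 7.28 in Control and 6.96, 6.83 and 6.88 in Dox, a change of -0.37 (SE 0.0464, limma adjusted p = 0.0103). It was the single fall among 5 ISWI partners, and its histone-fold partner CHRAC1 changed by -0.16 (limma adjusted p = 0.0503). In NuRD 2 of 12 fell, CDK2AP1 (-0.22) and MTA2 (-0.20, limma adjusted p = 0.0404).

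Of 7 partners of HP1, the H3 lysine methyltransferases SUV39H1 (-0.25) and SUV39H2 (-0.22) fell, and the median of this list was -0.18. POGZ (0.17) and SENP7 (0.27) had higher means and did not pass. In the list of SIN3 and acetyltransferase partners of ING proteins 2 of 14 fell, SAP30 (-0.26) and BRMS1 (-0.28). In the list around P-TEFb, the kinase that releases paused RNA polymerase II, 2 of 6 fell. These were HEXIM1 (-0.33, limma adjusted p = 0.0202) and MEPCE (-0.19), both parts of the 7SK particle that holds the kinase inactive. The kinase's cyclin CCNT1 changed by 0.21 (limma adjusted p = 0.103).

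In PRC1, PHC3, a polyhomeotic subunit, was the single rise among 10 (0.25, limma adjusted p = 0.0492), and none fell. The other SNF2 ATPases went both ways, with 2 of 10 lower and 2 higher. HELLS, which supports DNA methylation in heterochromatin, fell by 0.35 and TTF2, which releases RNA polymerase II at mitosis, fell by 0.24. BTAF1, which strips TBP from DNA, rose by 0.38 (SE 0.0714, limma adjusted p = 0.0286) and HLTF, a fork remodeller, rose by 0.30. No partner passed in SWI/SNF (11 measured, BCL7B the nearest at -0.17), INO80 (7, MCRS1 at -0.21) or SRCAP and TIP60 (16, MRGBP at -0.16), with limma adjusted p of at least 0.0639. At an unadjusted limma p under 0.05 these lists held 2 of 11, 1 of 7 and 4 of 16 genes. The same held for 22.6% of all genes and 28.7% of those above the olfactory receptor level. Calls of the named partners were also lost when 1 array was left out: all 14 without Control replicate 3 and 13, all but HEXIM1, without Dox replicate 3. Those 2 fits called 0.919% and 0.589% of all genes. Leaving out Control replicate 1 or 2 ended 12 and 11 of them, and leaving out Dox replicate 1 or 2 ended 3 and 10.

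**Figure D4:**
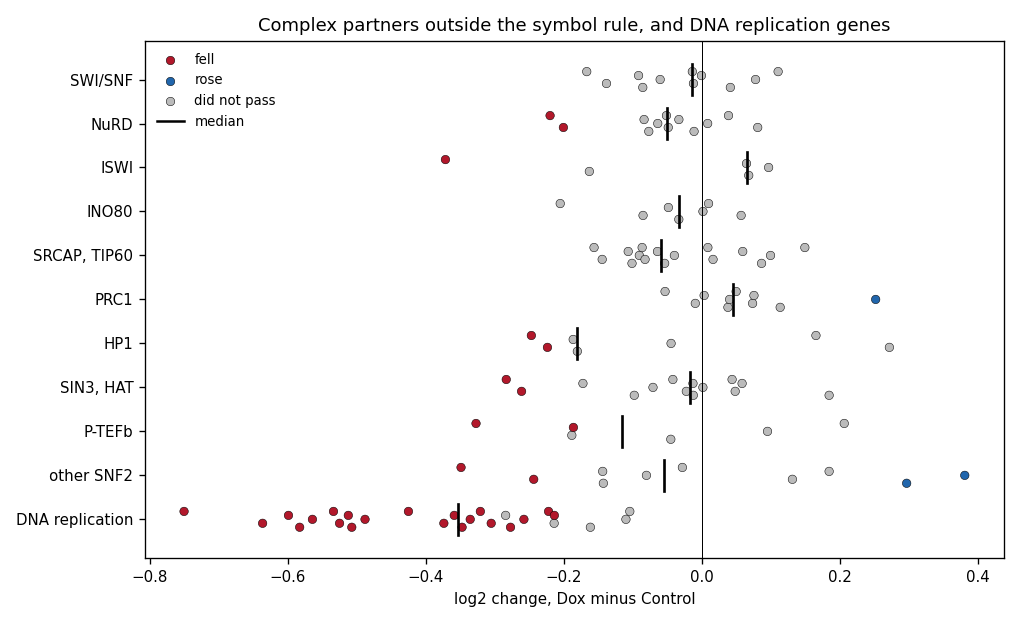
Log2 change (Dox minus Control, horizontal axis) of each partner gene in 10 lists of complex partners and in the DNA replication list, with genes that fell in red, genes that rose in blue and the list median as a bar. The DNA replication genes (median -0.35) lie to the left, while the partner lists, with medians between -0.18 and 0.065, straddle 0.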

How the data were processed

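RNA from 3 untreated and 3 doxycycline-treated cultures was hybridised to 1 Affymetrix array each. The log2 signals deposited by the authors come from RMA, according to the submitters' processing notes. The software version and genome build are not given in the sources used here. RMA subtracts background and equalises the arrays' distributions, so a shift common to all genes would not be seen. Array medians lay between 4.12 and 4.17. Of 70523 probe sets, 23781 carried 1 symbol, 1543 several and 45199 none. Symbols were updated through RefSeq's table (306 changed), which left 22411 genes, each with its brightest probe set.

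Differences were tested in R 4.3.3 with limma 3.58.1 (lmFit, eBayes, treatment as the only term), with Benjamini-Hochberg adjustment over all 22411 genes and no filter on low values. The fit was also run on simulated data with independent normal noise for each gene and added shifts. Such data hold no effect shared by an array, so no support is drawn from them. Over all 22411 genes, same-numbered arrays did not deviate together (r between -0.016 and 0.030). The labels state no pairing, and none was used. Single members can differ from this: SMARCB1 and CHD9 ordered alike by replicate number in both groups, and RUVBL1 in opposite order. Replicates are separate cultures per the labels. The number of arrays limits the precision.

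Members, families, partner lists and pairs were chosen with earlier results of these data known. Named genes were SLBP, every member past the threshold, the ATPases, the 2 members with the smallest adjusted p per family, the paired genes, and up to 4 called genes per partner list, or else the nearest. Beyond this rule every member is given once for completeness, as are CHRAC1, POGZ, SENP7 and CCNT1, chosen after their values were seen. Alternatives were repeated quantile normalization, median centring, background subtraction, no dim genes, trend and robust eBayes, array weights, the mean of probe sets, every probe set, symbols as annotated, a block for the replicate number, and leaving out each array in turn. Tables and figures used Python 3.11.15, pandas 2.3.3 and matplotlib 3.10.9.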

Additional observations from a re-analysis of the deposited data

How the results depend on the processing

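The 4 falls became 3 after repeated quantile normalization or median centring, which dropped CHD1L. In 4 settings more members were called, and more of all genes. With background subtraction (13.6% of all genes called) and with trend and robust eBayes (9.12%), 9 fell and 1 rose. With array weights 10 fell and 3 rose (14.4%), and without dim genes 11 fell and 2 rose (22.9%). Whether these settings are more sensitive or add false calls was not tested. SMARCD1, ARID1B, DPF1, SMARCB1 and CBX2 were among the falls and INO80D among the rises in each of these 4 fits. With the replicate block 0 members fell (1.48% of all genes called), and with every probe set tested on its own 0 fell (0.488%). At an unadjusted limma p under 0.05 the reported fit has 22 members (31.9%). The share was 22.6% of all genes and 28.7% of those above the olfactory receptor level. The labels state no pairing of same-numbered arrays. Leaving out 1 array gave between 0 and 3 falls and no rise. The median change of the members was -0.0339 as reported, -0.0286 with median centring, -0.0436 without dim genes, -0.0465 with array weights and between -0.0504 and -0.032 with 1 array left out. The cause of these differences was not tested. No named gene reversed its direction past the threshold. DPF3 and BRD7P3 lay at background, and the number of arrays limits what small changes can be called.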
